A study of Mus musculus with 31 samples.

Results

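The lysosomal cathepsins and cystatins described here are 10 genes measured in 31 single cells of the adult mouse lung. They are the proteases Ctsa, Ctsb, Ctsc, Ctsd, Ctsh, Ctsl, Ctss and Ctsz and the cysteine protease inhibitors Cst3 and Cstb. They were listed by name, with earlier results of these data known, and all 10 were matched by Ensembl identifier among the 47069 genes of the deposited tables. The cells came from right lung lobes of 10-week-old Csf1r-GFP mice, in which a fluorescent protein reports the receptor of the macrophage growth factor CSF1, at 7 days after a sham operation that opened the chest. They were sorted as CD45+, CSF1R-GFP+ and F4/80+ cells, and the label also names Ly6G without a sign. The reporter is not restricted to macrophages, since monocytes and some other leukocytes also use Csf1r. All 31 cells belong to 1 group and no animal is named, so the group counts as 1 sample, cells are not replicates and no p-value was computed. Levels are given for the 20 cells with at least 1000 FPKM of the lysozyme gene Lyz2, called Lyz2-high cells here, and for the other 11. FPKM scales the fragments of a gene to its transcript length and to the library's mapped fragments, so levels of different genes can be set side by side. The lowest Lyz2-high cell, C7, had 1229 FPKM of Lyz2, and the highest of the other 11, D10, had 553 FPKM.

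Cathepsins are proteases that work mainly in the acidic lysosome. Most are made as inactive precursors, reach the lysosome through the mannose 6-phosphate pathway and are activated there by removal of a propeptide. Cathepsins B, C, H, L, S and Z are cysteine proteases of the papain family, cathepsin D is an aspartic protease, and cathepsin A is a serine carboxypeptidase that also protects beta-galactosidase and neuraminidase in a complex. Cystatin C, the product of Cst3, is secreted and blocks papain-family proteases outside the cell and along the secretory route, while cystatin B, the product of Cstb, acts in the cytosol and nucleus. In macrophages and dendritic cells cathepsin S cleaves the invariant chain that occupies the peptide groove of MHC class II. Lysosomal genes are controlled in part by TFEB and its relatives, which bind a palindrome around CACGTG, and myeloid genes by PU.1, which binds a purine-rich core such as GAGGAAGT.

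The libraries of both sets of cells differed in more than Lyz2. Total expected counts ran from 521492 to 4059833 (median 1591648) in the 20 Lyz2-high cells and from 120835 to 1592301 (median 413337) in the other 11. Nuclear protein-coding genes took 87.4 to 95.6% of counts in the Lyz2-high cells, against 32.7 to 61.4% in 10 of the other 11. The exception was cell F11, with 87.9% and a Lyz2 level of 0. Csf1r was present, at 1 FPKM or more, in 20 of 20 Lyz2-high cells and Ptprc, which encodes CD45, in 19. Adgre1, which encodes F4/80, was present in 15 of the 20, and Ly6g in 7, at up to 115 FPKM. The myeloid adaptor gene Tyrobp was present in 20. Of 10 alveolar macrophage markers 7 were at 0 in every cell, including Siglecf, Marco and Pparg, while Chil3 was present in 12 of the 20 cells, at up to 12025 FPKM, and Ear2 and Itgax in 3 each. Of 8 epithelial markers 6 were at 0 in every cell, while Epcam was present in 0 of 20 and 4 of 11 cells, at up to 335 FPKM, and Cdh1 in 0 of 20 and 1 of 11. The 8 neutrophil markers summed to 0 to 1768 FPKM (median 9.60) in Lyz2-high cells and to 0.64 to 165 FPKM (median 55.3) in the others. Among them S100a9, Retnlg, Ltf and Lcn2 were at 0 throughout. S100a8 was present in 3 of 20 and 0 of 11 cells, at up to 1594 FPKM. Mmp8 was present in 4 of 20 and 1 of 11, at up to 398 FPKM. Csf3r was present in 9 of 20 and 9 of 11, at up to 189 and 41.2 FPKM. Cxcr2 was present in 10 of 20 and 10 of 11, at up to 9.74 and 91.6 FPKM. The 8 lymphocyte markers summed to 0 to 152 FPKM (median 0) in Lyz2-high cells and to 0 to 653 FPKM (median 11.99) in the others, with Ncr1 and Nkg7 at 0 throughout, and the B-cell gene Ms4a1 was present in 1 of 20 and in 10 of 11. Of 8 endothelial and fibroblast markers, Pecam1 was present in 2 of 20 and 10 of 11 cells, at up to 120 and 26.6 FPKM. Dcn was present in 0 of 20 and 3 of 11, and Col1a1 in 1 of 20 and 1 of 11. The part that these library differences play in the member levels of the 11 cells was not tested.

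Promoter sequences, taken from RefSeq on GRCm38.p6, covered 250 bases before to 50 bases after the annotated start and were found for 7 of the 10 genes. The 5 shown hold one of the motifs searched for on both strands, with the match in capitals, and they belong to Ctsd and Ctsl, found in few Lyz2-high cells, to Ctss, found in all of them, and to Ctsa and Ctsc, which lie between. The motifs were chosen after the levels had been seen. The letters CACGTG, which lie inside every match of TCACGTGA, were found in Ctsa, Ctsd and Ctsl, against 7.15% of 32851 promoters. The longer TCACGTGA was found in Ctsa and Ctsd, against 0.974% of promoters, and GAGGAAGT or its complement ACTTCCTC in Ctsc and Ctss, against 3.20%. None of the 3 motifs was found in the windows of Cst3 and Ctsz, nor in the first of the Ctsa windows, chr2:164832622-164832921, which holds the start of the annotated gene. The Ctsl window lies inside the annotated gene, chr13:64359337-64370890 on the minus strand, and does not hold its start. The same is true of the second Ctsa window. A match describes letters and is not a measured binding site.
Ctsa promoter, chr2:164833523-164833822, plus strand: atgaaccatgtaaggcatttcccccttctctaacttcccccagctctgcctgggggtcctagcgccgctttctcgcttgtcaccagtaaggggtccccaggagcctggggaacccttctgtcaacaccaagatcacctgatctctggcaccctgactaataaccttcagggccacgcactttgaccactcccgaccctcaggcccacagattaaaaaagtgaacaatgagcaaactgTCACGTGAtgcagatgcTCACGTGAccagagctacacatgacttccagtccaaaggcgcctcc
Ctsd promoter, chr7:142387778-142388077, minus strand: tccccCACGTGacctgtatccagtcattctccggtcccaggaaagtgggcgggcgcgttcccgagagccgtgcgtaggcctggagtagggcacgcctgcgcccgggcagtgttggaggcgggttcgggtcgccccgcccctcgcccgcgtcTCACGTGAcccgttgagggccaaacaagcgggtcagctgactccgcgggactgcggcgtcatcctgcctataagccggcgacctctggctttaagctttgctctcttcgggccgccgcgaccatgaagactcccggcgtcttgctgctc
Ctsl promoter, chr13:64370471-64370770, minus strand: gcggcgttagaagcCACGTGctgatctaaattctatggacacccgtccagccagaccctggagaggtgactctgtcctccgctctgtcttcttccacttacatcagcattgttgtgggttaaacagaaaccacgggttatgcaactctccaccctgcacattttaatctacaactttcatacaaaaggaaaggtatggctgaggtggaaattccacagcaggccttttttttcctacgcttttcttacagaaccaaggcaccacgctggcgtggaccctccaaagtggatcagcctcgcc
Ctss promoter, chr3:95526536-95526835, plus strand: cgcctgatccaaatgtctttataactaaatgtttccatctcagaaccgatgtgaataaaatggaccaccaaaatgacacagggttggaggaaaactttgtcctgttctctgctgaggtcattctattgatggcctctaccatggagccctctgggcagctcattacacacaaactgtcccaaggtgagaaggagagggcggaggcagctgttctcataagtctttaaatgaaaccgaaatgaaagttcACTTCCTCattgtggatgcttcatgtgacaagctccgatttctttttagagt
Ctsc promoter, chr7:88277835-88278134, plus strand: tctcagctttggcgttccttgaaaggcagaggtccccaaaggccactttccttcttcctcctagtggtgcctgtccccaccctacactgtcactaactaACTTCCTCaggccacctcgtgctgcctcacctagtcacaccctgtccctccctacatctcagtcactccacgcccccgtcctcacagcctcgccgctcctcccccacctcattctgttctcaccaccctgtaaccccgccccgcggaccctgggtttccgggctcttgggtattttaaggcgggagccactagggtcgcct
The Ctsa window of its second listed start carries TCACGTGA on both sides of the start. In Ctss the match begins 2 bases before the start, and in Ctsc 151 bases before it.

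In the Lyz2-high cells 8 of the 10 genes were present in at least 50% of cells, whereas 3.04% of all genes in the table were. Since the members were chosen with earlier results known, this is a description of them. The median of the members' median levels was 645 FPKM in these cells, against 0 over all genes. Among genes that reached 50% of the cells, the median level was 912 FPKM for the 8 members and 50.3 FPKM for all 1431 such genes. Read counts of the members took 0.480 to 3.41% (median 1.27%) of a Lyz2-high library, against 0 to 1.21% (median 0.00073%) in the other 11.

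**Figure D1:**
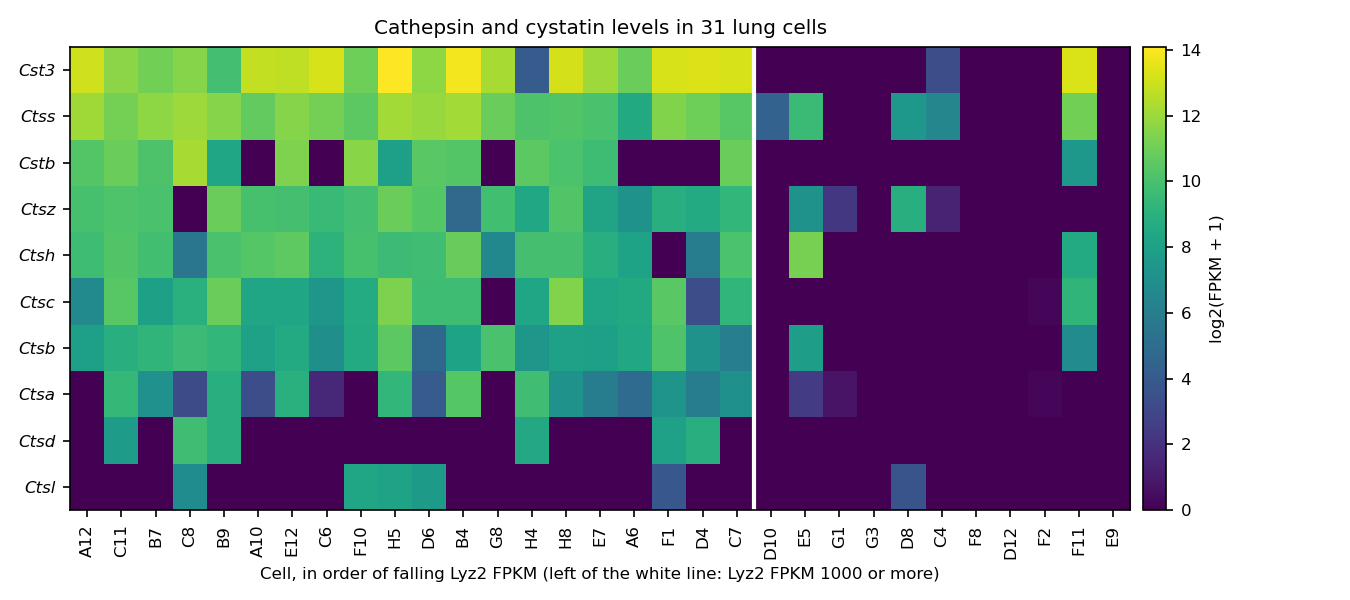
Level of each of the 10 genes (rows, by falling median) in each of the 31 cells (columns, by falling Lyz2), as log2(FPKM + 1) by colour. Cst3 and Ctss fill the 20 Lyz2-high columns, Ctsd and Ctsl are at 0 in most of them, and right of the white line F11 and E5 carry most of the signal.

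Ctss, the endopeptidase of MHC class II processing (ENSMUSG00000038642; chr3:95526786-95556403, GRCm38), was the most even of the cathepsins. It was present in all 20 Lyz2-high cells at 377 to 4535 FPKM with a median of 2273 FPKM, and in 5 of the other 11. Its mean was 2506 ± 1278 FPKM (SD over 20 cells), a coefficient of variation of 51.0%, which was the smallest of the 10 genes. The lowest value was in A6 and the highest in H5, so the whole range was 12.04-fold. In the other cells Ctss had 2166 FPKM in F11, 790 in E5, 185 in D8, 90.6 in C4 and 20.3 in D10. The Ctss range of the other cells thus overlapped that of the Lyz2-high cells in F11 and E5.

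Ctsb, a broad endopeptidase that can also trim dipeptides from carboxyl ends (ENSMUSG00000021939; chr14:63122462-63145923), was likewise present in 20 of 20. Its level ran from 24.97 FPKM in D6 to 1476 FPKM in H5, with a median of 315 FPKM. In each of the 20 cells Ctss exceeded Ctsb, by 2.76 ± 1.55 on the log2(FPKM + 1) scale (mean and SD over cells). Ctsb was present in E5 at 238 FPKM and in F11 at 109 FPKM, and was at 0 in the other 9 cells.

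The 3 exopeptidases of the papain family were each missing from 1 Lyz2-high cell, and from a different one. Ctsh, an aminopeptidase (ENSMUSG00000032359; chr9:90054152-90076089), had 0 to 1819 FPKM with a median of 899 FPKM and was at 0 in F1. Ctsz, a carboxypeptidase (ENSMUSG00000016256; chr2:174427493-174439039), had 0 to 1965 FPKM with a median of 925 FPKM and was at 0 in C8. Ctsc, the dipeptidyl peptidase that activates granule serine proteases (ENSMUSG00000030560; chr7:88278085-88310888), had 0 to 2746 FPKM with a median of 391 FPKM and was at 0 in G8. Each was therefore found in 95.0% of the 20 cells, with a 95% interval by the exact Clopper-Pearson method of 75.1 to 99.9% that covers counting error over cells. Among the other 11 cells Ctsz was present in 4, Ctsh in 2 and Ctsc in 1. The highest Ctsh level of all 31 cells, 2329 FPKM, was in E5, which is a cell with 485 FPKM of Lyz2 and 61.4% protein-coding counts.

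Ctsa, the serine carboxypeptidase (ENSMUSG00000017760; chr2:164832873-164841032), varied widely among the cells that held it. It was present in 17 of 20 Lyz2-high cells, with a median of 97.3 FPKM over the 20. Cells A12, F10 and G8 were at 0, C6 had 1.92 FPKM, and B4 had the highest value, 1350 FPKM. The span from C6 to B4 was 703-fold among the 17 cells. Of the other 11 cells E5 alone reached 1 FPKM, with 4.43 FPKM.

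Reads of Ctsd and Ctsl showed an on-or-off pattern. Ctsd, the aspartic protease (ENSMUSG00000007891; chr7:142375911-142388038), was present in 6 of 20 Lyz2-high cells (30%, interval 11.9 to 54.3%). Its 6 values were 878 FPKM in C8, 482 in D4, 459 in B9, 364 in H4, 270 in F1 and 216 in C11, and the remaining 14 cells held no read of it. None of the other 11 cells held it, which allows a share of up to 27.3% at a limit of 3 cells and 28.5% by the exact interval.

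Library size overlapped between cells with and without Ctsd. The 14 cells at 0 had a median of 1587233 total counts and the 6 cells above 0 a median of 1591648. Cell H5, the deepest with 4059833 counts, held no Ctsd read, which allows up to 0.739 CPM (counts scaled to a fixed library total) at a limit of 3 counts. This limit covers the counting error of reads, and the part of transcripts missed at capture was not tested. The lowest of the 6 positive cells had 420 CPM, and the smallest Ctsd count above 0 was 382. A protein-coding gene annotated on the same strand, Gm49369, overlaps Ctsd and has no entry in the count table, and its part in the Ctsd values was not tested.

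Ctsl, an endopeptidase with broad activity (ENSMUSG00000021477; chr13:64359337-64370890), was present in 5 of 20 Lyz2-high cells (25%, interval 8.66 to 49.1%). It had 320 FPKM in F10, 273 in H5, 205 in D6, 113 in C8 and 13.1 in F1, and D8 of the other 11 cells had 11.4 FPKM. The 15 cells at 0 included H4, with 3526674 counts. Both Ctsd and Ctsl were found in C8 and F1, and neither in 11 of the 20 cells. The 6 Ctsd-positive and 5 Ctsl-positive cells thus shared those 2. A same-strand processed pseudogene, Gm49230, and an antisense gene, Gm47123, overlap Ctsl and have no entry in the count table. Their part in the Ctsl values was not tested.

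Cst3, the secreted inhibitor (ENSMUSG00000027447; chr2:148871722-148875692), was the most abundant of the 10 genes. It was present in 20 of 20 Lyz2-high cells at 16.03 to 17451 FPKM, with a median of 5912 FPKM. Its median rank among all genes of a cell was 27, and its best rank was 9. The lowest value was in H4 and stood far from the next, 959 FPKM in B9. Among the other 11 cells Cst3 was found in F11 at 9907 FPKM and in C4 at 9.56 FPKM.

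Cstb, the cytosolic inhibitor (ENSMUSG00000005054, chr10:78425669-78427622), was high where found and without reads elsewhere. It was present in 14 of 20 Lyz2-high cells (70.0%, interval 45.7 to 88.1%), at 244 FPKM in H5 to 4785 FPKM in C8. Its median over the 20 cells was 1129 FPKM, and over the 14 cells 1375 FPKM. Cells A10, A6, C6, D4, F1 and G8 held no read of it, among them F1 with 3183172 counts. Of the other 11 cells F11 alone held it, at 179 FPKM.

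**Figure D2:**
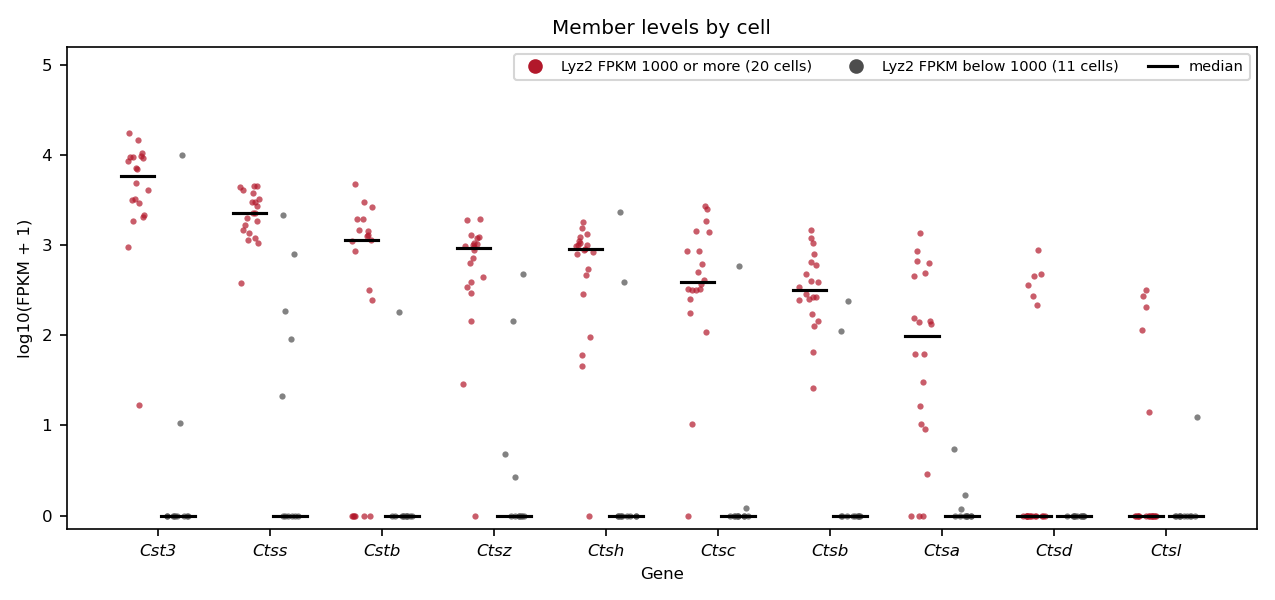
Level of each gene as log10(FPKM + 1), one point per cell, with 20 Lyz2-high cells in red left of the 11 other cells in grey and the median as a bar. Medians of the Lyz2-high cells fall from 5912 FPKM for Cst3 to 0 for Ctsd and Ctsl, and every median of the other 11 cells is 0.

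Ordered by median level in Lyz2-high cells, the genes ran Cst3, Ctss, Cstb, Ctsz, Ctsh, Ctsc, Ctsb and Ctsa, with Ctsd and Ctsl at 0. None of the 9 neighbouring pairs in this order differed by more than the SD of its per-cell log2 difference. Cst3 exceeded Ctss in 15 of 20 cells, and Ctsz exceeded Ctsh in 10. Of all 45 pairs, 18 differed by more than that SD, and all 18 had Cst3 or Ctss on top or Ctsd or Ctsl below. The SD takes in cells at 0, so a pair within it can still keep its order in most cells. Ctss exceeded Ctsh in 20 of 20 cells, with a mean difference of 2.30 and an SD of 2.73. It exceeded Ctsz and Ctsc in 19 cells each, also within the SD. Ctss was the leading cathepsin in 19 of 20 cells and Ctsc in the remaining one, H8.

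The make-up of the summed signal changed from cell to cell. Cst3 was the leading member in 14 Lyz2-high cells, Ctss in B7, B9 and D6, and Cstb in C8, F10 and H4. Cst3 made up 0.284% of the summed FPKM of the 10 genes in H4 and 76.8% in D4, with a median of 54.7%. Ctss made up 7.11 to 34.3%, with a median of 17.5%. Both inhibitors together made up 11.95 to 76.8% of the sum, with a median of 59.1%, and were lowest in B9.

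**Figure D3:**
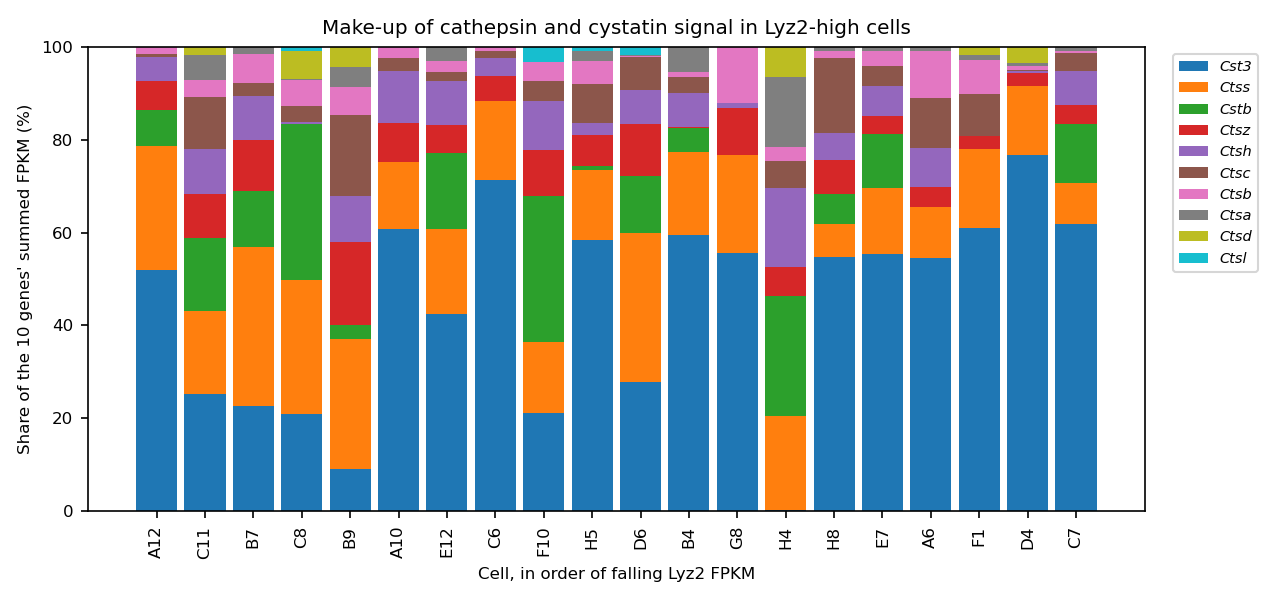
Share of each gene in the summed FPKM of the 10 genes, in percent, stacked for each of the 20 Lyz2-high cells in order of falling Lyz2. Cst3 takes most of the bar in many cells but 0.284% in H4, and Cstb is wide in C8, F10 and H4.

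No cell held all 10 genes, which allows a share of up to 9.68% of the 31 cells and 15% of the 20 at a limit of 3 cells, or 11.2% and 16.8% by the exact interval. Lyz2-high cells held 5 to 9 members with a median of 8, and the others 0 to 6 with a median of 1. There were 9 members in 6 cells (B9, C11, C8, D6, H4 and H5), 8 in 9 cells, 7 in A10, A12, A6 and C6, and 5 in G8. Cell G8, with 1072993 counts, lacked Ctsa, Ctsc, Ctsd, Ctsl and Cstb. Of the other 11 cells, 5 held none of the 10 genes and F11 held 6.

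The broad core was shared by most Lyz2-high cells. Cst3, Ctsb, Ctsc, Ctsh, Ctss and Ctsz were found together in 17 of 20 cells (85%, interval 62.1 to 96.8%). With Ctsa added the set was complete in 15 cells, and with Ctsa and Cstb in 11 (55.0%, interval 31.5 to 76.9%). These sets were formed after the counts had been seen, so they describe the cells and test nothing. Over pairs, 28 of 45 were found together in at least 50% of the 20 cells.

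**Figure D4:**
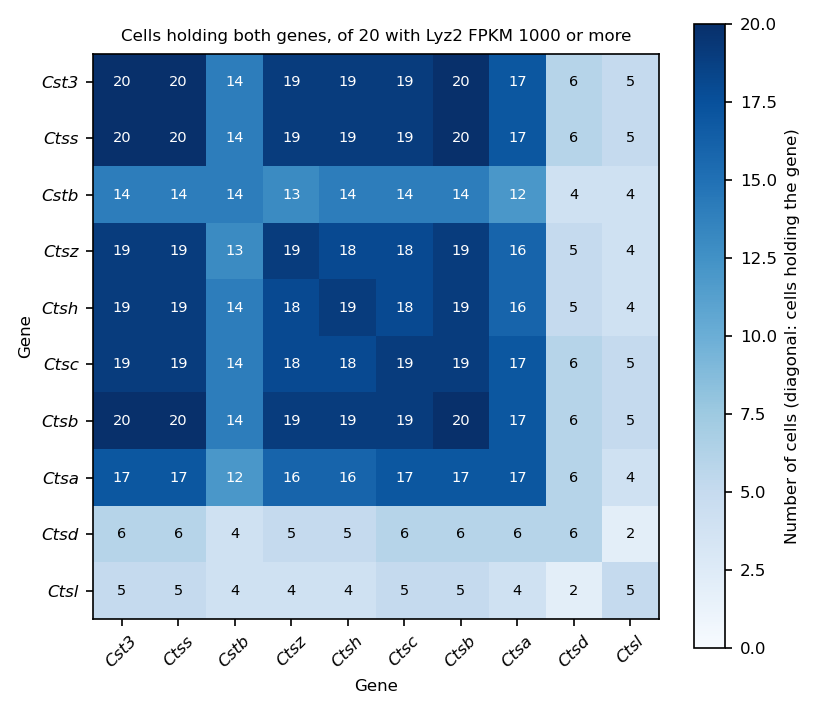
Number of the 20 Lyz2-high cells that held both genes of a pair at 1 FPKM or more, with the number holding each gene on the diagonal. Pairs among Cst3, Ctss and Ctsb reach 20 cells, while Ctsd and Ctsl were found together in 2.

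Levels of the 10 genes, with values of 0 included, were weakly related. Over the 20 cells, Spearman's rho of the 45 pairs ran from -0.34 for Cst3 with Cstb to 0.53 for Ctsa with Ctsc, with a median of 0.14. It lay between -0.3 and 0.3 for 31 pairs and reached 0.5 for 1. Ctsh followed the protein-coding share of the library with rho 0.66, Ctsz with 0.49 and Ctsc with 0.47, and the lowest was -0.14 for Ctsd. Ctss followed Lyz2 with rho 0.55. With total counts, rho of the 10 genes ran from -0.26 for Cstb to 0.35 for Ctsz. All these values are descriptions over 20 cells whose genes share a library and its depth, and none is read as a finding. Most pairs of members had a weak correlation, some of them over sparse values. The part of the protein-coding share in the member levels was not tested.

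Cells of the Lyz2-high set were also divided by single marker genes that are not members. C1qb, a complement gene of tissue macrophages, was present in 6 cells. Ly6c2, a classical monocyte gene, was present in 10, and the MHC class II gene H2-Aa in 13. The splits share cells and are not independent of each other. Means were compared at a 2-fold difference for the 8 members present in at least 50% of cells, and the ranges of both sides overlapped for every member in every split.

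C1qb-positive cells held more Cst3 and Ctsc. Cst3 ran from 9354 to 17451 FPKM (median 9727) in the 6 C1qb-positive cells, against 16.03 to 10452 FPKM (median 3240) in the 14 C1qb-negative cells. In all 6 the level was above that of 13 of the 14 C1qb-negative cells, D4 being the exception. The means were 11769 ± 3496 FPKM in C1qb-positive and 4184 ± 3042 FPKM in C1qb-negative cells (SD over cells), a log2 ratio of 1.49 and a difference larger than either SD.

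Ctsc ran from 177 to 2746 FPKM (median 1145) in C1qb-positive cells, against 0 to 1869 FPKM (median 324) in C1qb-negative cells. The means were 1387 ± 1043 FPKM in C1qb-positive cells and 504 ± 531 FPKM in C1qb-negative cells, a log2 ratio of 1.46, but the difference was smaller than the SD of the C1qb-positive cells. Ctsa also passed 2-fold, with means of 404 ± 513 FPKM in C1qb-positive and 199.7 ± 291 FPKM in C1qb-negative cells, but its log2 ratio of 1.01 was 0.10 without B4. In all, 3 of the 8 members were higher and 0 lower, against 13.8% of 1431 genes higher and 32.8% lower. Median total counts were 2177839 in C1qb-positive and 1433691 in C1qb-negative cells, and the part of depth in these values was not tested. Ctss, Ctsb, Ctsh and Ctsz had log2 ratios of 0.22, 0.45, 0.19 and 0.03, all within 2-fold.

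By Ly6c2 the direction of Cst3 and Ctsc was the other way. Cst3 ran from 16.03 to 8522 FPKM (median 3531) in the 10 Ly6c2-positive cells, against 2049 to 17451 FPKM (median 9578) in the 10 Ly6c2-negative cells. The means were 3959 ± 2871 FPKM in Ly6c2-positive and 8959 ± 4987 FPKM in Ly6c2-negative cells, a log2 ratio of -1.18 and a difference about as large as the larger SD. Ctsc averaged 439 ± 521 FPKM in Ly6c2-positive and 1100 ± 928 FPKM in Ly6c2-negative cells, a log2 ratio of -1.32, and the difference was smaller than the SD of the Ly6c2-negative cells. These 2 were lower and 0 were higher of the 8 members, against 15.9% of genes lower and 23.1% higher. The count of lower members is thus near the background. All 6 C1qb-positive cells were Ly6c2-negative, so both splits draw on the same cells. Median total counts were 1233765 in Ly6c2-positive and 1812009 in Ly6c2-negative cells, and the part of depth was not tested. With A6, at 48.6 FPKM of Ly6c2, counted as negative, Cst3 had a log2 ratio of -0.99 and was no longer past 2-fold.

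By H2-Aa the means of Cst3 and Cstb differed by more than 2-fold. Cst3 ran from 16.03 to 17451 FPKM (median 9354) in the 13 H2-Aa-positive cells, against 959 to 7188 FPKM (median 3190) in the 7 H2-Aa-negative cells, and 8 of the 13 lay above all 7. The means were 8065 ± 5004 FPKM in H2-Aa-positive and 3478 ± 2118 FPKM in H2-Aa-negative cells, a log2 ratio of 1.21, and the difference was smaller than the SD of the H2-Aa-positive cells. Cstb averaged 1483 ± 1393 FPKM in H2-Aa-positive and 614 ± 755 FPKM in H2-Aa-negative cells, a log2 ratio of 1.27 that was 0.97 without C8, and this difference was again smaller than that SD. These 2 of 8 members were higher and 0 lower, against 18.2% of genes higher and 18.6% lower, so the count of higher members is near the background. Of the 13 cells, H4 and D4 had 1.5 and 1.82 FPKM of H2-Aa. With H2-Aa counted from 50 FPKM, a threshold chosen after the data were seen, Cst3 had a log2 ratio of 1.15 and Cstb 1.34. All 6 C1qb-positive cells were among the 13. Without them Cst3 averaged 4890 ± 3796 FPKM in 7 H2-Aa-positive cells, a log2 ratio of 0.49, and Cstb 2096 ± 1545 FPKM, a log2 ratio of 1.77. Median total counts were 1837295 in H2-Aa-positive and 1079787 in H2-Aa-negative cells, and the part of depth was not tested.

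Ctsd and Ctsl, present in fewer cells, were outside these comparisons, and their counts are given as they stand. Ctsl was present in 5 of 13 H2-Aa-positive cells, against 0 of 7 H2-Aa-negative cells, which allows a share of up to 42.9% at a limit of 3 cells. Of 674 genes found in 5 of the 20 cells, 11.3% were likewise found in H2-Aa-positive cells alone. Ctsl was present in 2 of 6 C1qb-positive against 3 of 14 C1qb-negative cells, and in 1 of 10 Ly6c2-positive against 4 of 10 Ly6c2-negative cells. Ctsd was present in 4 of 13 H2-Aa-positive against 2 of 7 H2-Aa-negative cells, in 1 of 6 C1qb-positive against 5 of 14 C1qb-negative cells, and in 3 of 10 on either side of Ly6c2. Of the 4 cells with Ctsd and H2-Aa, H4 and D4 had 1.5 and 1.82 FPKM of H2-Aa. With H2-Aa counted from 50 FPKM, the log2 ratio of Ctsd went from 0.67 to -0.69. Ctss, the class II processing protease, averaged 2816 ± 1328 FPKM in H2-Aa-positive and 1931 ± 1025 FPKM in H2-Aa-negative cells, a log2 ratio of 0.54, and did not reach 2-fold.

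**Figure D5:**
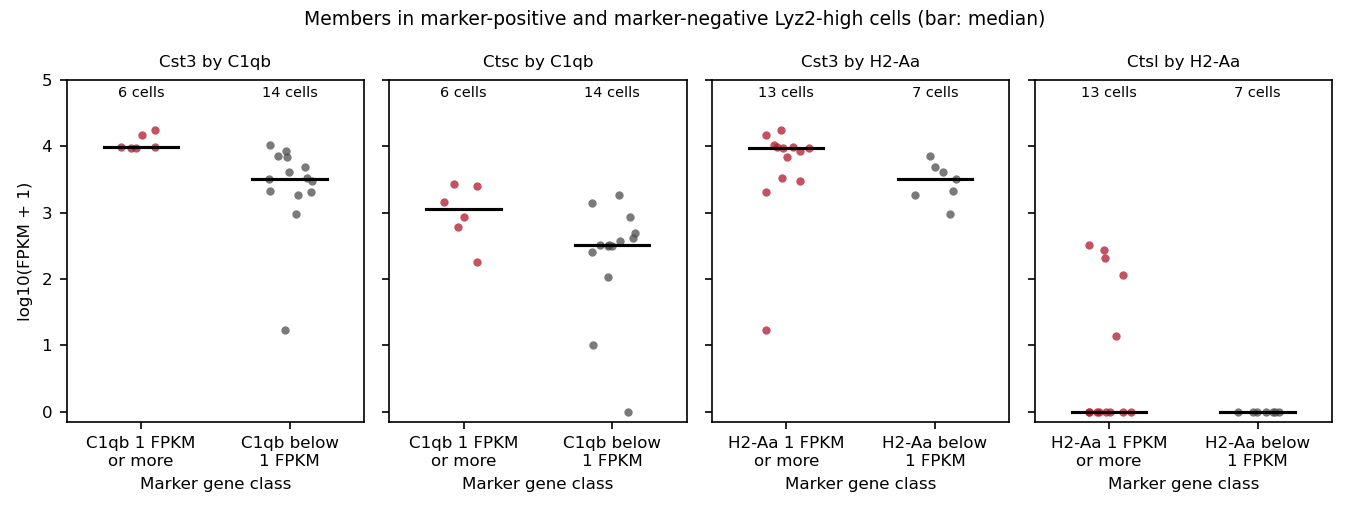
Level of Cst3 and Ctsc by C1qb and of Cst3 and Ctsl by H2-Aa in Lyz2-high cells, as log10(FPKM + 1), one point per cell and the median as a bar, with marker-positive cells in red on the left. The 6 C1qb-positive cells lie at 9354 FPKM of Cst3 or more, and the 7 H2-Aa-negative cells hold no Ctsl.

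Of the 11 cells below 1000 FPKM of Lyz2, F11 and E5 carried a member profile and the rest little. F11 had no Lyz2 but 9907 FPKM of Cst3 and 2166 FPKM of Ctss, both within the Lyz2-high range, with 585 FPKM of Ctsc and 394 FPKM of Ctsh. It held 11206 FPKM of H2-Aa and 258 FPKM of C1qb. E5 had Ctsh as its leading member and held Ctss, Ctsb, Ctsz and Ctsa, but had 0 FPKM of Cst3. D8 held Ctsz at 480 FPKM beside Ctss and Ctsl.

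Relatives outside the 10 genes were nearly absent. Of 15 other cathepsin genes 11 were at 0 in all 31 cells, among them Ctse, Ctsg and Ctsk, and 0 reached 50% of Lyz2-high cells. Ctsf and Ctso, papain-family proteases, were each present in 1 Lyz2-high cell. Of 15 other cystatin and stefin genes matched, 14 were at 0 in all cells, and Cst7, which encodes cystatin F, was present in 1 Lyz2-high and 1 other cell. Serpinb6a, the most widely found of 5 serpins listed as cathepsin inhibitors, was present in 3 of 20 Lyz2-high cells.

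The rest of the lysosome was found at lower levels than the leading members. The lists used were drawn up with earlier results of these data known, and their counts describe them. Of 27 hydrolases and cofactors 10 were present in at least 50% of Lyz2-high cells, against 8 of the 10 members. Npc2, which binds cholesterol, Grn, the progranulin gene, and Psap, the saposin precursor gene, were present in 20 of 20 at medians of 234, 180 and 148 FPKM.

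Several membrane and acidification genes were present in nearly all Lyz2-high cells. Laptm5 was present in 20 of 20 Lyz2-high cells at a median of 576 FPKM, Lamp1 in 19 at 266 FPKM and the macrophage sialomucin gene Cd68 in 17 at 681 FPKM. Of 15 subunits of the vacuolar ATPase, the proton pump of the lysosome, 10 were present in at least 50% of the cells. Atp6v0c was present in 19 at a median of 803 FPKM, Atp6v0e in 18 at 675 FPKM and Atp6v1e1 in 18 at 491 FPKM. Of 8 other lysosomal proteases 3 reached 50%. They were Lgmn, the asparaginyl endopeptidase that processes several cathepsins, in 14 cells, Napsa in 11 and Prcp in 10.

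Regulators and carriers were sparse. M6pr, a mannose 6-phosphate receptor, was present in 14 of 20 Lyz2-high cells at a median of 15.1 FPKM, and was the one gene of 9 sorting receptors and regulators to reach 50%. Tfe3 was present in 5 cells, Sort1 in 3 and Tfeb in 2, whereas Spi1, which encodes PU.1, was present in 19 at a median of 439 FPKM. Tfeb and Spi1 are named although the rule for named genes does not cover them, a choice made with their values known. In the class II list Cd74, the invariant chain cut by cathepsin S, was present in 17 cells at a median of 2522 FPKM, H2-Ab1 in 15 and the thiol reductase gene Ifi30 in 14.

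Outside the members, 1423 genes present in at least 50% of Lyz2-high cells were ranked by Spearman's rho with the mean log2(FPKM + 1) of the 10 members over the 20 cells. The highest were the C-type lectin gene Clec12a (0.76), the endoplasmic reticulum chaperone genes Calr (0.67) and Hspa5 (0.66), and the actin-capping gene Capg (0.65). Tmbim4, Slc25a3, Pitpna, Apobec1, Bsg and Tmem59 followed, the last at 0.59. The order depended on the measure, since 4 of these 10 remained with Pearson's r and 2 when presence in 75% of the cells was required. The members' mean takes in values of 0, for Ctsd in 14 cells, Ctsl in 15, Cstb in 6 and Ctsa in 3. It thus reflects how many members a cell held as well as their levels.

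For single members the highest rho values were 0.79 for Cstb with Sft2d1, 0.76 for Ctsc with Rgs10 and 0.75 for Ctss with Selenok. Among the 3 genes nearest to Ctsb were Ndufa4 (0.63) and Lamp1 (0.62), and Ctsh was nearest to Gng10 (0.73), Asap1 and the chemokine receptor gene Ccr2 (0.67). Among the 3 nearest to Cst3 were Cd9 (0.65) and the lipoprotein gene Apoe (0.63). Ctsz was nearest to the chemokine gene Ccl9 (0.60), Ifi30 and Eif4g2, and Ctsa to Tifa (0.64), Tacc1 and Cbl. Next to Ctsc and Rgs10 stood Snrpf and Selenop, next to Ctss and Selenok stood Pla2g7 and the lysosomal thioesterase gene Ppt1, and next to Cstb and Sft2d1 stood Pabpc1 and Adam17. For Ctsd, with 6 positive cells, the nearest were Gm45033, Sag and Ssr3, and for Ctsl, with 5, Snx5, U2af1 and Surf4. Each is the top of 1423 values over 20 cells that share their libraries, and is given as a description.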

How the data were processed

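Transcriptomes of 31 single cells were measured after capture on a Fluidigm C1 chip, SMARTer amplification of polyadenylated RNA and Nextera XT library preparation, per the labels' protocols. The tools were RSEM, Trimmomatic and CASAVA 1.8 on the GRCm38 build, per the submitters' processing notes. For the aligner, annotation release and cell filters, the sources used here name nothing. The authors deposited RSEM expected counts, which need not be whole, and FPKM values, which the authors scaled to transcript length and depth. Of 75 count columns, 44 matched no sample and were not used.

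The kit marks no strand, so reads of overlapping genes cannot be told apart (Ctsa with Pltp, Ctsb with Fdft1, Ctsc with Gm26522, Ctss with Hmgb1-ps5, Ctsz with Nelfcd). Without molecular identifiers, amplified copies count as reads, and intervals and limits of 0 (3 counts) cover counting error only. No doublet caller was run. No libraries were identical.

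A gene was present at FPKM 1 or more. Ratios used means with 1 FPKM added. Python 3.11.15, pandas 2.3.3 and scipy 1.17.1 were used. The likeness ranking was tested on simulated data. Coordinates came from the GENCODE annotation of GRCm38. The members and lists were chosen with earlier results of these data known. Named were all members, the 3 genes of each other list present in most Lyz2-high cells, the 10 genes most like the members' mean and the 3 most like each member. A few genes covered by the rule are not reported here.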

Additional observations from a re-analysis of the deposited data

How the results depend on the processing

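No paired analysis was possible because all cells belong to 1 group and no test between groups was made. No cell held all 10 genes at 1 FPKM, whatever its Lyz2 level or protein-coding share. The settings of 5 or 50 FPKM, a lower or higher Lyz2 minimum and 80% or more protein-coding counts could therefore give no other result. They do not test it. At a minimum of 1 expected count, which could have differed, no cell held all 10 genes either. The same was found at 10 expected counts and after thinning to equal depth, which are stricter. With Ly6c2 cells counted from 50 FPKM, a threshold chosen after the data were seen, 1 member in place of 2 passed 2-fold by Ly6c2. Without the C1qb-positive cells, 1 member in place of 2 passed it by H2-Aa, an alternative also added later. Leaving out 1 cell at a time gave 2 to 4 members by C1qb, 2 to 3 by Ly6c2 and 1 to 3 by H2-Aa, the value of 1 arising without C8. The log2 ratio of Cst3 by C1qb stayed between 1.35 and 1.67, of Ctsc between 1.14 and 1.79, and of Ctsa between 0.10 and 1.43. With 10 FPKM added, Ctsa had 0.98. In CPM, which is not scaled to length, 6 of the 10 members kept their place in the order of medians. The cause of these shifts was not tested. With cells from 1 group and no named animal, spread between animals cannot be told apart from spread between cells.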
